A study of Mus musculus with 6 samples.

Results

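RefSeq noncoding RNA probes are the spots of the array that were designed against transcripts RefSeq lists as not coding for protein, recognised by an accession that starts with NR_. All such probes that are not controls were taken, apart from 89 on chromosomes X and Y. This gave 2467 probes among 56605, and 2410 of them were matched through their accession to 2203 genes of the mouse RefSeq table (assembly GRCm38.p6), while 57 stayed without a name. By RefSeq type, 2053 were long noncoding RNA (lncRNA) probes, 263 belonged to transcribed pseudogenes and 29 to small structural RNAs. A further 54 were noncoding transcripts of genes that RefSeq lists as protein-coding. Pseudogene probes can share sequence with their parent genes, so their signal is uncertain as to its source.

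The samples were microglia of 10-week-old mice with acute ischemic stroke (AIS), labelled as male, with 1 array a sample. The cells were selected with magnetic beads for the surface receptor P2RY12. The 3 control samples came from PGC-1α f/f littermates, which carry a loxP-flanked PGC-1α allele together with an eGFP gene. The 3 mPGC-1α samples came from mice with that same allele crossed to a tamoxifen-inducible Cre line, in which the Cx3cr1 gene drives Cre, so that PGC-1α is overexpressed in Cx3cr1-expressing cells. The controls were not described as carrying the Cre, and the time after AIS is not in the labels. Nothing says whether a sample was 1 animal or a pool, so the p-values below rest on these samples and not on a known number of animals.

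PGC-1α is a coactivator that works with nuclear receptors such as ERRα, and with NRF-1, to raise genes of mitochondrial energy metabolism. Noncoding RNAs act at many other steps. Small structural RNAs are parts of the splicing, ribosome-making and RNA-trimming machinery, snoRNA host genes carry small nucleolar RNAs in their introns, microRNA host transcripts are cut into microRNAs, and many long noncoding RNAs lie beside the developmental regulators with which they are expressed. In microglia, the resident phagocytes of the brain, noncoding RNAs such as the precursor of miR-155 are known from inflammatory activation.

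Mature microRNAs were not measured on these arrays, but several of their host transcripts were. Some of the microRNAs that the host transcripts named below give rise to are shown 5′ to 3′ from the RefSeq table (GRCm38.p6), with the seed, bases 2 to 8, in capitals. The other arms of miR-22 and miR-155 and the microRNAs of the other hosts are left out. The 2 miR-9 arms are cut from Mir9-3hg, miR-22 from Mir22hg and miR-155 from Mir155hg, and no seed is shared between them.
miR-9-5p: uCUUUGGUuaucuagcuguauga
miR-9-3p: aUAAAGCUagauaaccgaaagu
miR-22-3p: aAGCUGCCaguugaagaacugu
miR-155-5p: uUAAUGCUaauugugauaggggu

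Before the results, 2 arrays need a description. In control 2 the X-linked noncoding RNA Xist, which is not among the 2467 probes, was at -4.75, while the other arrays were between -0.52 and 0.02. These values, like all levels below, give the processed signal on a log2 scale, relative to the 75th percentile of its array. In control 2, 6 of 7 probes of Y-linked genes were well above background, against 1 or 2 on the other arrays. The labels call all mice male, and high Xist with few Y-linked probes detected goes against that label on the arrays other than control 2. Control 2 may thus differ in sex from all other samples, which was not tested. The array mPGC-1α 1 had its own pattern, since 135 of the 36995 tested probes with 6 values lay at least 3 log2 units below each of the other arrays there, against 0 to 3 probes on any other array. Ppargc1a, which encodes PGC-1α, was not higher in the mPGC-1α samples, with a difference of -0.23 ± 0.30 (SE) for its brighter probe. Cx3cr1, the locus that holds Cre in the mPGC-1α mice, was lower on every mPGC-1α array than on every control array at its probe with 6 values, by -1.15 ± 0.33 log2 (SE; adjusted p = 0.573).

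Noncoding probes were seen less often than messenger RNA probes. A probe was taken as detected on an array when the scanner software marked it as well above background. On the 3 control arrays this held for 70.9%, 74.9% and 55.1% of the noncoding probes, and on the 3 mPGC-1α arrays for 72.4%, 71.0% and 51.4%. For probes of curated messenger RNAs (NM accessions) the shares were 89.8%, 91.2% and 81.6% in the controls and 90.0%, 89.4% and 78.0% in mPGC-1α. Noncoding probes were thus below messenger RNA probes on 6 of 6 arrays, and both arrays with low shares, control 3 and mPGC-1α 3, lay on the second slide. The 2 genotypes overlapped in these shares.

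**Figure D1:**
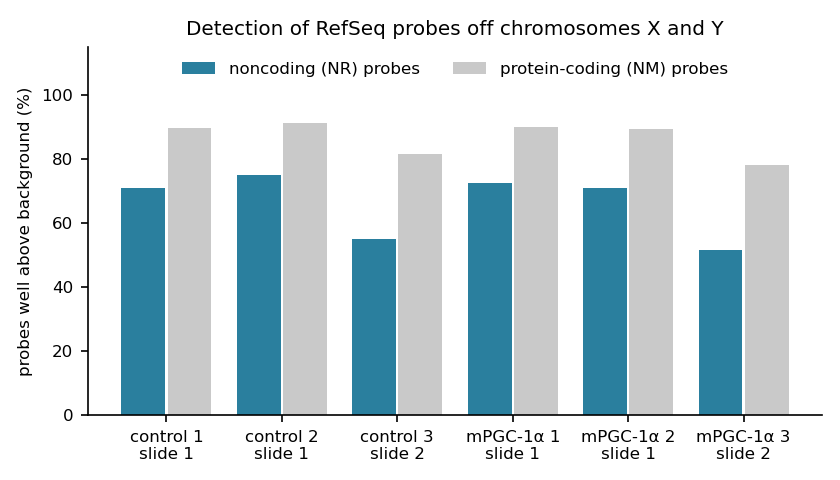
Percent of probes marked as well above background on each array, for noncoding (NR) and messenger RNA (NM) probes off chromosomes X and Y, with the slide named under each array. Noncoding shares run from 51.4% to 74.9% and stay below the messenger RNA shares on every array, and both kinds are lowest on the 2 arrays of slide 2.

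Of the 2467 probes, 1162 (47.1%) were above background on all 6 arrays and 541 (21.9%) on none, against 68.4% and 6.97% of the messenger RNA probes. The small structural RNAs stood at one end, with 28 of 29 probes above background on all arrays. Probes of long noncoding and antisense RNAs stood at the other, with 931 of 2059 (45.2%). A probe entered the comparison of genotypes if it was above background on all usable arrays of at least one group. This left 1390 noncoding probes for 1265 named genes, of which 1231 passed in both groups, 118 in the controls alone and 41 in mPGC-1α alone. The other 1077 had 1066 failures of detection and 11 with too few values, and they are not described further. Among tested probes the median level was -2.38 for noncoding and -0.57 for messenger RNA probes.

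The order of brightness ran without a gap from the brightest noncoding signals downwards, and 117 probes lay over a level of 2. A probe's brightness depends on its sequence as well as on the amount of RNA, so this is an order of signals and not of transcripts. I730030J21Rik, a long noncoding RNA of no established role, led with 6.34, 7.10 and 6.96 in the controls and 7.04, 7.09 and 7.36 in mPGC-1α. It was followed by AA536875, 2310002F09Rik and Rn4.5s, the rodent 4.5S RNA, which is made by RNA polymerase III. Next came Gm6994, 4933427D06Rik, 1700110I01Rik, A530006G24Rik, Gm4425, Gm12070, Gm11517, Gm8624, Rn7s1, Gm6981 and Gm5779, where Rn7s1 is the RNA scaffold of the signal recognition particle. The 15 named genes had mean levels from 5.12 to 6.98, and 7 were long noncoding RNAs, 6 transcribed pseudogenes and the other two small RNAs. One probe without a gene match also lay among the 15 brightest probes, at a mean level of 6.76, between AA536875 and 2310002F09Rik. Neighbours in this order overlapped in their arrays.

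None of these 15 had an adjusted p below 0.05. Every mPGC-1α array lay above every usable control array for 4 of them, Gm6994, A530006G24Rik, Gm4425 and Gm5779, with differences of 0.42, 0.50, 0.41 and 0.42 log2. The same held for 91 of all 1390 tested noncoding probes, and for 7.63% of all tested probes with 6 values. Dimmer second probes of Gm4425 and 1700110I01Rik differed by -0.03 and -0.75, opposite in sign to the brighter ones. Over the 15, the differences, mPGC-1α minus control, lay between 0.02 and 0.50, with a median of 0.37, and control 1 was the lowest array for 15 of 15. For Rn4.5s the levels were 6.21, 6.68 and 6.67 in the controls and 6.63, 6.70 and 7.24 in mPGC-1α, a difference of 0.34 ± 0.24 (SE; limma adjusted p = 0.82). The fit had no usable value of mPGC-1α 3 for Gm8624 and Gm6981 and none of control 3 for Gm5779.

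No noncoding probe passed an adjusted p of 0.05 in the comparison of genotypes, and no probe of any kind did (0% of 40745). The smallest adjusted p of a noncoding probe was 0.573 in limma, adjusted by Benjamini-Hochberg over the whole table. At an unadjusted p below 0.05 there were 51 of 1390 noncoding probes, against 6.71% of all probes. A change of at least 2-fold with an unadjusted p below 0.05, called the looser rule here, was met by 14 noncoding probes that were higher in mPGC-1α and 15 that were lower. Over all tested probes the same rule was met by 1.17% in the higher and 2.89% in the lower direction. Both noncoding counts thus stood near or below the background, and at this number of arrays the members below are values and not calls.

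The median difference over the 1390 probes was 0.16, beside 0.15 over all tested probes and 0.12 over messenger RNA probes, with 991 higher and 399 lower. Of the 1320 noncoding probes with 6 values, 80 had every mPGC-1α array above every control array and 28 had every one below. Over all tested probes these shares were 7.63% and 2.51%. The difference grew with the level, from a median of 0.03 for 246 noncoding probes under a level of -4 to 0.27 for 117 probes over 2. For messenger RNA probes of these same strata it was -0.07 and 0.24.

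**Figure D2:**
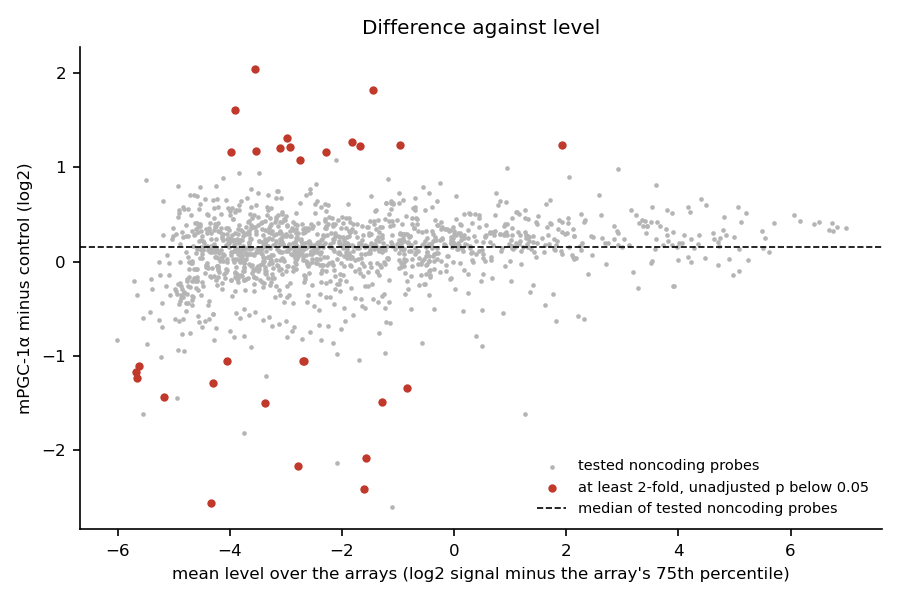
Difference between the genotypes (mPGC-1α minus control, log2) against the mean level over the arrays, 1 point for each of the 1390 tested noncoding probes, with the 29 that met the looser rule in red and the median of 0.16 as a dashed line. The red points lie at low to middle levels, and bright probes stay close to the median.

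With the replicate number as a block, 31 noncoding probes had an adjusted p below 0.05, 16 higher and 15 lower, against 1.11% and 3.11% of all tested probes. No label says that the replicate numbers are pairs, and they were taken as such from these same values. The arrays numbered 3 were also those of the second slide, so slide and pairing cannot be told apart there. The calls changed with the scaling. With quantile normalization or with the 75th percentile taken over all spots, the same block gave 0 noncoding calls, and the reason was not tested. Of the 15 lower calls, 5 came from a single low array, mPGC-1α 1, described below. The fit draws the variance of a probe towards that of probes of like level, so a small p with this block can stand beside pairs that disagree. For 4930572O13Rik the adjusted p with the block was 0.00117, although among the mPGC-1α arrays only mPGC-1α 1 was low, at -8.57. The p-values with the block therefore do not measure how well the pairs agree. Without control 2, 17 noncoding probes had an adjusted p below 0.05, 5 higher and 12 lower, and without mPGC-1α 1 there were 9, of which 3 were higher and 6 lower.

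Among the noncoding genes that were higher in mPGC-1α, Cerox1 had the smallest p. This long noncoding RNA, named as a cytoplasmic regulator of oxidative phosphorylation, had levels of -1.74, -1.27 and -1.74 in the controls and 0.03, -0.79 and -0.26 in mPGC-1α. All mPGC-1α arrays were above all controls, by 2.37-fold or 1.24 ± 0.32 log2 (SE; adjusted p = 0.573, or 0.00647 with the replicate block described above, called blocked in what follows). The exact permutation test cannot go below 0.1 with 3 arrays against 3, and gave 0.1 here. Sox8, the neighbouring gene of Cerox1, differed by 0.74 log2 (adjusted p = 0.73).

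Sox2ot, the transcript that spans the Sox2 gene of neural stem cells and glia, was at -3.90, -2.81 and -3.92 in the controls and at -1.93, -2.60 and -2.44 in mPGC-1α. The difference was 1.22 ± 0.38 log2 (SE; adjusted p = 0.573, blocked 0.0311), and control 2 lay close to the mPGC-1α arrays. A second Sox2ot probe gave 0.68 with overlapping groups. Sox2 itself differed by 0.52 (adjusted p = 0.81). Pantr1, which is transcribed next to the neural POU factor gene Pou3f3, was at -3.15, -1.96 and -2.29 in the controls and -1.83, -0.62 and -1.12 in mPGC-1α. This was a difference of 1.27 ± 0.40 log2 (SE; adjusted p = 0.573, blocked 0.00722), beside 0.40 for Pou3f3.

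Mir9-3hg, the host transcript of the miR-9 arms shown above, which are abundant in neural progenitors, had values of -4.94, -3.76 and -3.65 in the controls. The mPGC-1α arrays were at -3.09, -2.49 and -3.23. The groups did not overlap and differed by 1.18 ± 0.41 log2 (SE; adjusted p = 0.587, blocked 0.0539), with 1.56 on the first slide and 0.42 on the second. Ipw, a paternally expressed transcript of the Prader-Willi region, was at 0.97, 1.90 and 1.05 in the controls. In mPGC-1α it was at 3.54, 1.95 and 2.14, so that the first array stood well above the others and the second only just above control 2. Ipw differed by 1.24 ± 0.41 log2 (SE; adjusted p = 0.577, blocked 0.00171), and Snrpn of the same region by 0.03.

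The other genes of this group were 4930479D17Rik and Gm11627, of no established role, with differences of 1.21 and 1.17, and the pseudogene Gm3893 with 1.82. For Gm3893 the values were -2.48, -1.86 and -2.70 in the controls and 1.42, -1.42 and -1.58 in mPGC-1α, so that 1 array carried most of the difference. Of the 14 probes higher by the looser rule, 13 had passed the detection filter in both groups and 1, that of Mir124a-1hg, through mPGC-1α alone. Groups did not overlap for 12 of the 14, beside 7.63% of all tested probes with 6 values, but picking by size and p favours such a gap. The array mPGC-1α 1 was the highest mPGC-1α array for 9 of the 14. Leaving out control 2 made 13 of the 14 differences larger.

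**Figure D3:**
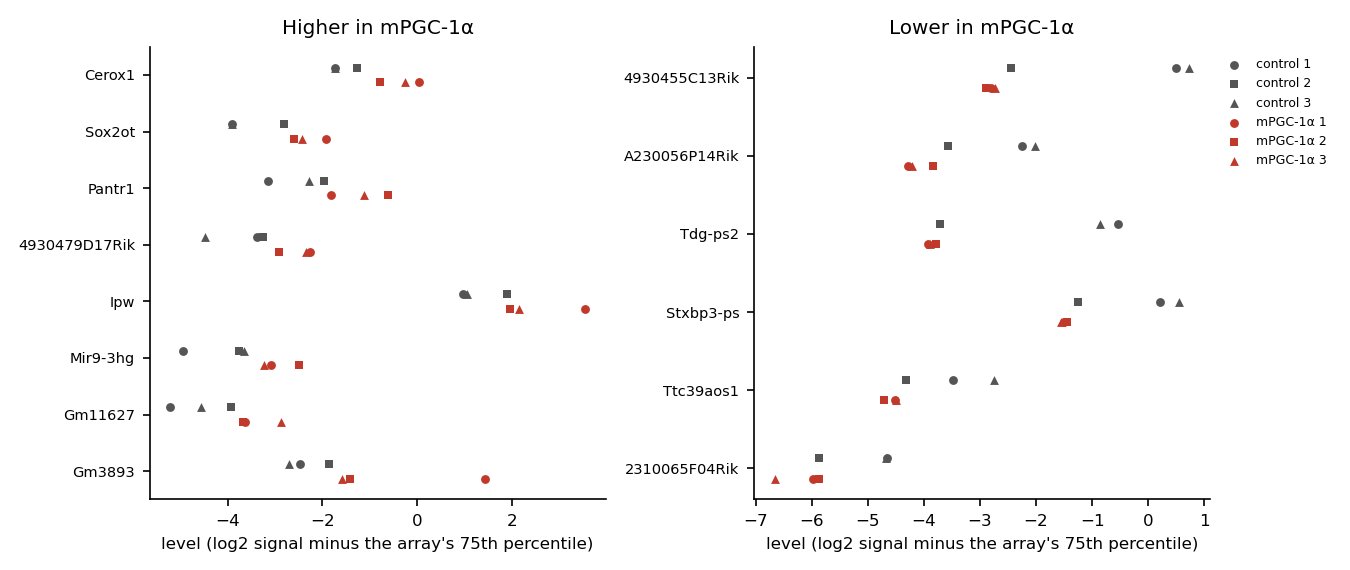
Level of each named higher and lower gene on the 6 arrays (log2 signal minus the 75th percentile of the array), control in grey and mPGC-1α in red, with a marker shape for each replicate number. In the left panel the 2 groups do not overlap, but control 2 (grey square) is nearer to the mPGC-1α mean than to controls 1 and 3 for Sox2ot, Ipw and Gm11627. In the right panel control 2 sits beside the 3 mPGC-1α arrays and apart from controls 1 and 3 in every row.

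The named genes that were lower in mPGC-1α shared an arrangement of the arrays. 4930455C13Rik, a long noncoding RNA of no established role, was at 0.50 and 0.73 in controls 1 and 3, but at -2.45 in control 2 and at -2.80, -2.89 and -2.74 in mPGC-1α. Control 2 and the mPGC-1α arrays thus lay within 0.45 log2 units of each other. The difference was -2.41 ± 0.64 log2 (SE; adjusted p = 0.573, blocked 1.49e-06), and -3.43 without control 2. Tdg-ps2, a pseudogene of the DNA repair enzyme TDG, was at -0.54 and -0.87 in controls 1 and 3, at -3.72 in control 2 and at -3.92, -3.79 and -3.90 in mPGC-1α. Its difference was -2.16 ± 0.64 log2 (SE; adjusted p = 0.573, blocked 6.14e-05).

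Stxbp3-ps, a pseudogene of a membrane-fusion gene, was at 0.21, -1.25 and 0.54 in the controls and -1.50, -1.44 and -1.55 in mPGC-1α, a difference of -1.33 ± 0.41 log2 (SE; adjusted p = 0.573, blocked 0.0036). A230056P14Rik was at -2.26, -3.57 and -2.02 in the controls and -4.28, -3.84 and -4.21 in mPGC-1α, a difference of -1.50 ± 0.41 log2 (SE; adjusted p = 0.573, blocked 0.00706). Both again had control 2 next to the mPGC-1α arrays. A dim probe of Ttc39aos1, the opposite-strand transcript of Ttc39a, differed by -1.05, but its far brighter second probe differed by 0.31 with overlapping groups, so the probes of this gene disagree in sign. Ttc39a itself differed by -0.29. 2310065F04Rik differed by -1.11 at a dim level. It and the dim Ttc39aos1 probe had passed the detection filter through the controls alone. No more than these 6 genes met the rule for naming lower genes.

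Over the 15 probes lower by the looser rule, control 2 was nearer to the mean of mPGC-1α than to controls 1 and 3 for 14, against 1015 of 1353 tested noncoding probes and 70.8% of all tested probes with values to compare. The exception was the pseudogene BC021767. Leaving out control 2 made 14 of the 15 differences larger, and 7 of the 15 had passed the detection filter through the controls alone. The same arrangement held for a probe of a noncoding Luc7l transcript, with -1.70, -5.19 and -2.26 in the controls and -5.12, -6.00 and -5.72 in mPGC-1α. The probe of the Luc7l messenger RNA differed by 0.16 where the noncoding one differed by -2.56. Over 33 such noncoding probes of 31 genes, 16 had the sign of the messenger RNA probe. The part of control 2's other features in these values was not tested.

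Another 8 noncoding genes were low on a single array. 4930572O13Rik was at -0.18, 0.84 and -0.06 in the controls and at 0.41 and 0.97 in mPGC-1α 2 and 3, but at -8.57 in mPGC-1α 1. 2310010J17Rik was at -8.67 there and between -1.65 and -0.28 elsewhere, and 1700027F06Rik at -8.74 against -3.11 to -2.45. 9430083A17Rik, a brighter probe, was at -3.69 there and between 1.44 and 3.02 elsewhere. The others were 9530059O14Rik, 4933411E08Rik, Gm15545 and Gm4349. No noncoding probe was at least 3 log2 units below the rest on any other array. Lhx1os alone stood that far above, at 0.05 in mPGC-1α 2 against -4.77 to -3.64 on the others.

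Small structural RNAs were higher in mPGC-1α almost throughout, by small amounts. Of the 28 tested probes, 27 had a positive difference and 1 a negative one, Snora78 at -0.04. The median was 0.51, beside 0.16 for all noncoding probes and 0.27 for noncoding probes over a level of 2, and 13 of 28 had groups without overlap. None passed an adjusted p of 0.05 and 7 had an unadjusted p below 0.05. Over all tested probes, 6.71% had such an unadjusted p, and 7.63% of those with 6 values were higher without overlap. The grouping of these RNA types was made after their values were seen. Control 1 was the lowest array for 23 of the 28, compared with 690 of the 1390 noncoding probes. The median stayed between 0.34 and 0.65 under every alternative tried, 0.41 with quantile normalization and 0.37 in the authors' own normalized values.

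Among them were the RNAs of the RNA-trimming enzymes. Rmrp, the RNA of RNase MRP, which cuts ribosomal precursor RNA, was at 2.59, 3.47 and 3.53 in the controls and 3.77, 3.97 and 4.30 in mPGC-1α. The difference was 0.81 ± 0.30 log2 (SE; adjusted p = 0.62, blocked 0.0133) without overlap. Rpph1, the RNA of RNase P, which trims transfer RNA, was at -0.13, 0.76 and 0.51 in the controls and 0.89, 1.04 and 1.40 in mPGC-1α. This gave 0.73 ± 0.31 log2 (SE; adjusted p = 0.72), and the related Rprl1, Rprl2 and Rprl3 differed by 0.55, 0.58 and 0.52.

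Snora23, an H/ACA RNA that guides pseudouridylation, was at 0.01, 0.74 and 0.61 in the controls and 1.21, 1.52 and 1.63 in mPGC-1α. Its difference of 1.00 ± 0.30 log2 (SE; adjusted p = 0.573, blocked 0.0137) was the highest of the 28. Snora81, of the same class, differed by 0.80. The U1 spliceosomal RNAs Rnu1a1, Rnu1b1 and Rnu1b6 differed by 0.60, 0.58 and 0.53 and the U2 RNA Rnu2-10 by 0.84, while the minor-spliceosome RNA Rnu12 was at 0.17. Rn7sk, which holds the elongation factor P-TEFb inactive, differed by 0.49 with overlapping groups, and Terc, the telomerase RNA, by 0.41. Lower values stood at Snord33 with 0.13 and Snora34 with 0.15.

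**Figure D4:**
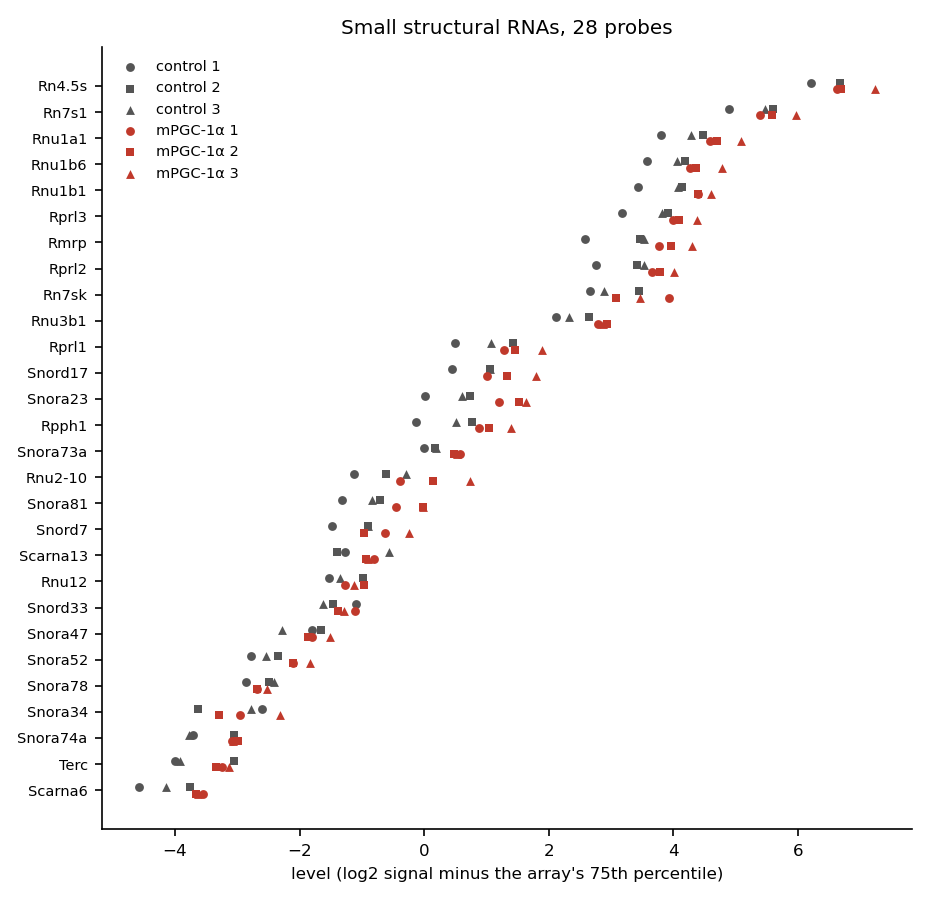
Level of the 28 small structural RNA probes on the 6 arrays (log2 signal minus the 75th percentile of the array), ordered by mean level, control in grey and mPGC-1α in red. Red points lie to the right of grey ones in most rows, with control 1 (grey circle) farthest left in 23 rows and Snora23 showing the widest gap, 1.00.

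The snoRNA host genes, whose introns hold small nucleolar RNAs, differed little. Of 16 on the array 14 were tested, 13 with a positive and 1 with a negative difference, and the median was 0.28. The brightest, Snhg9, was at 4.22, 4.96 and 4.96 in the controls and 4.74, 4.86 and 5.39 in mPGC-1α, and differed by 0.28 ± 0.28 log2 (SE; adjusted p = 0.84). Snhg7, Snhg6 and Snhg20 differed by 0.28, 0.41 and 0.42, with control 3 unusable for Snhg7. Gas5 and Snhg11 had no probe among the noncoding ones.

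Imprinted noncoding RNAs, which are expressed from 1 parental allele, were represented by 9 tested genes, all 9 with positive differences and a median of 0.28. Meg3, maternally expressed and a suppressor of growth, had 4 probes, and all were higher. The brightest was at 2.61, 2.80 and 1.89 in the controls and 4.38, 2.40 and 3.48 in mPGC-1α, so the groups overlapped, and it differed by 0.99 ± 0.43 log2 (SE; adjusted p = 0.73, blocked 0.0092). The 3 dimmer probes gave 0.88, 1.17 and 0.75 without overlap. On each of the 4 the highest array was mPGC-1α 1. Rian and Mirg, which lie in the same imprinted cluster, differed by 0.33 and 0.11 with overlapping groups. Kcnq1ot1, the silencing RNA of the Kcnq1 domain, was at 3.82, 4.28 and 3.83 in the controls for its brightest probe. In mPGC-1α it was at 4.53 and 3.83, mPGC-1α 3 being unusable, and it differed by 0.20. The differences of its 4 tested probes ran from -0.26 to 0.62.

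Of the microRNA host transcripts, 10 of 15 on the array were tested, with 9 positive and 1 negative difference and a median of 0.48. Mir22hg, the source of miR-22 shown above, was at 0.37, 0.62 and 0.53 in the controls and 1.62, 0.83 and 0.99 in mPGC-1α, without overlap, a difference of 0.64 ± 0.30 log2 (SE; adjusted p = 0.74). Mir124a-1hg, the precursor of the neuronal miR-124, varied from -4.85 to -1.35 among the mPGC-1α arrays and from -5.46 to -4.03 among the controls, and differed by 1.61 ± 0.70 log2 (SE; adjusted p = 0.72, blocked 0.0139). Mir155hg, the source of the inflammatory miR-155 shown above, was dim and scattered, at -3.65, -5.29 and -4.74 in the controls and -2.18, -5.17 and -3.67 in mPGC-1α. Mir99ahg was the negative one at -0.21 for its brighter probe, while its dimmer probe gave 0.11. Mir142hg had no noncoding probe.

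Nuclear and immune RNAs gave mixed signs. Of 12 tested immune and stress responsive RNAs, 9 had positive and 3 negative differences, with a median of 0.20 and no adjusted p below 0.05. AW112010, induced by interferon, was at 2.25, 2.17 and 3.40 in the controls and 2.77 and 2.84 in mPGC-1α, mPGC-1α 3 being unusable. Lncpint, a p53 target, differed by 0.63 ± 0.34 log2 (SE; adjusted p = 0.79) for its brighter probe, but by -0.01 for its dimmer one. Tug1 differed by 0.04. Mirt2 and Morrbid, which restrain inflammatory signalling and cell death in myeloid cells, were at -0.65 and -0.37. Of the nuclear body and RNA-processing list 7 genes were tested, 5 positive and 2 negative, with a median of 0.41, and the negative ones were Neat1 and Miat.

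For both of these the probes disagreed or differed in size. Neat1, the scaffold of paraspeckles, was at 0.05, -0.49 and -0.81 in the controls and -0.77, -0.82 and -0.35 in mPGC-1α for its brighter probe, a difference of -0.23 ± 0.31 (SE; adjusted p = 0.87). Its dimmer probe gave -0.98 without overlap. Miat differed by -0.37 for its brighter probe but by 1.23 for its dimmer one, where mPGC-1α 1 was at 0.24 and the other mPGC-1α arrays at -1.95 and -1.48. Of 78 noncoding genes with more than 1 tested probe, 35 had probes of opposite sign. Malat1 had no noncoding probe.

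The neural noncoding RNAs had 16 of 26 genes tested, 13 with positive and 3 with negative differences and a median of 0.31. Pantr1, Sox2ot, Mir9-3hg, Mir124a-1hg and Meg3 made up the 5 with an unadjusted p below 0.05, and all but Mir9-3hg passed with the replicate block. Over all tested probes, 6.71% had such an unadjusted p, and 1.11% passed as higher with the block. Among the 5, Mir124a-1hg had been admitted by detection in mPGC-1α alone, the group where it was high. Otx2os1, Miat and Six3os1 were the negative ones, at -0.71, -0.37 and -0.13. Markers of neurons, oligodendrocytes and astrocytes were higher as well, and none passed an adjusted p of 0.05. Of 20 neuron markers 19 were higher, with a median of 0.88 and 15 without overlap, beside 7.63% of all tested probes with 6 values. The summed level of the neuron markers ran from 5.71 to 6.42 in the controls and from 6.56 to 6.82 in mPGC-1α. Such sums are the log2 of added linear levels, so the brightest markers weigh most in them. Snap25, by far the brightest neuron marker, differed by 0.37 with overlapping groups. For 15 oligodendrocyte markers 14 were higher with a median of 0.90, and their summed level was 3.61 to 4.38 in the controls and 4.51 to 5.29 in mPGC-1α. All 14 tested astrocyte markers were higher with a median of 0.97 and sums of 4.03 to 4.99 against 4.87 to 6.33. No marker of these 3 lists was below background on every array. Ependymal and choroid plexus markers went the other way, 7 of 9 lower with a median of -0.42 and sums of 4.71 to 5.62 against 4.21 to 5.33. Of the monocyte and macrophage markers 10 of 15 were lower, with a median of -0.09, and of the endothelial markers 8 of 10 were higher, with a median of 0.35.

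Microglia markers were 10 higher and 6 lower of 16 tested, with a median of 0.23, and their summed levels, 8.05 to 8.53 in the controls and 8.31 to 8.88 in mPGC-1α, overlapped. The part of neurons and glia in the neural noncoding values was not tested, and in these bulk samples more cells of a type and more RNA per cell cannot be told apart.

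**Figure D5:**
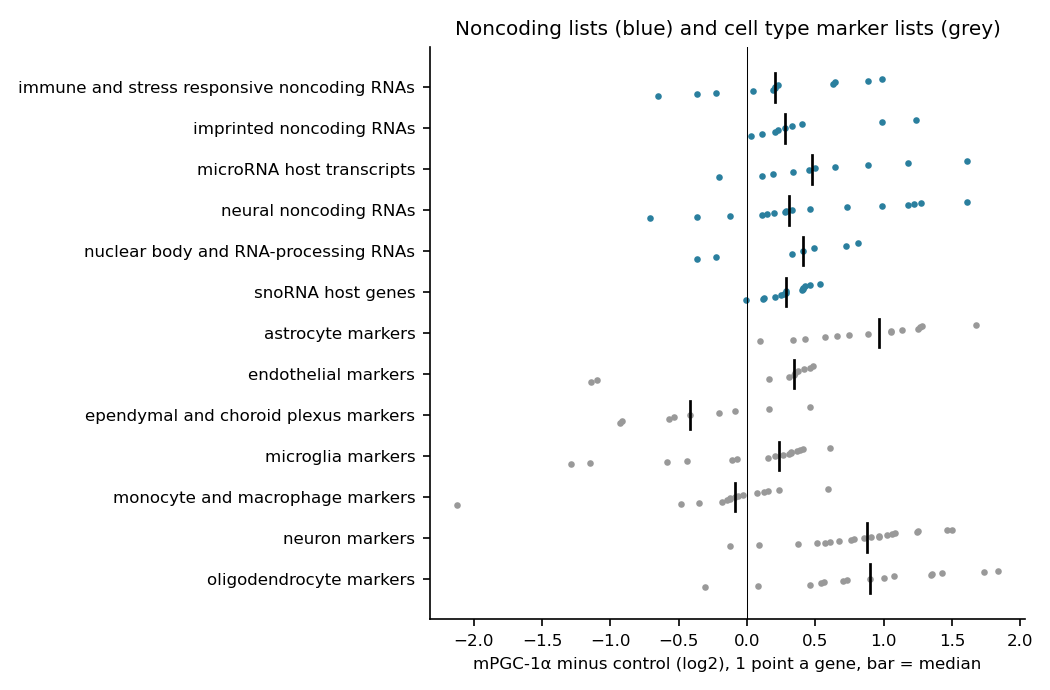
Difference between the genotypes (mPGC-1α minus control, log2) for each tested gene of the noncoding lists (blue) and of the cell type marker lists (grey), with a black bar at each median. Medians of the noncoding lists run from 0.20 to 0.48, below those of the neuron, oligodendrocyte and astrocyte markers, 0.88 to 0.97, and the median of the ependymal and choroid plexus markers is negative, -0.42.

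Opposite-strand transcripts were compared with the genes they lie across from in 78 pairs. None of the 78 passed an adjusted p of 0.05, and the median difference was 0.16 for the opposite-strand transcripts and 0.23 for their partners. Both had the same sign in 53 of 78 pairs. Differences were positive for 991 of the 1390 noncoding probes and 66.9% of all tested probes, so many pairs would share a sign without any link. Both members were higher without overlap in 1 pair, Lhx1os and the LIM homeobox gene Lhx1, with differences of 2.05 ± 0.80 (SE; adjusted p = 0.65, blocked 0.000391) and 0.60 ± 0.32 (SE; adjusted p = 0.79). The value of Lhx1os came mostly from mPGC-1α 2. Scpep1os and Alkbh3os1 were lower at -1.29 and -1.23 while Scpep1 and Alkbh3 differed by 0.06 and 0.30.

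Promoter windows, 250 bases before to 50 after the start, were matched for 860 of the 1265 tested noncoding genes. The windows of 2 genes with the smallest p in either direction are shown 5′ to 3′ on the strand of the gene, from RefSeq (GRCm38.p6), with each CG pair in capitals. That of Cerox1 at chr17:25570561-25570860 (plus strand) holds 22 CG pairs and that of 4930455C13Rik at chr10:21342006-21342305 (minus strand) holds 6, beside a median of 7 both for the tested noncoding genes and for all 27025 promoters.
Cerox1: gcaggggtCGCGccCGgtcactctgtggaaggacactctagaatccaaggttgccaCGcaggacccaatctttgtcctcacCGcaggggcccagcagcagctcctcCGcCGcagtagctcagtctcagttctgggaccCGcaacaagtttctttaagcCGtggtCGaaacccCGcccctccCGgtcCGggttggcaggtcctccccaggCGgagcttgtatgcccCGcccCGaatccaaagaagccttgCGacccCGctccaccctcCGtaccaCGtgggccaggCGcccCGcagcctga
4930455C13Rik: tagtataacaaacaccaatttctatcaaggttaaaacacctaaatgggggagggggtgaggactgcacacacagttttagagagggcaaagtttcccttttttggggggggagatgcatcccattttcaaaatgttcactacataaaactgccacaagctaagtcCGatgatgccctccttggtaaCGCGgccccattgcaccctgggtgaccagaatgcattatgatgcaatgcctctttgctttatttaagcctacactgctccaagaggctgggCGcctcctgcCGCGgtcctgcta

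Letters bound by partners of PGC-1α were searched on both strands. The estrogen-related receptor letters AAGGTCA were in 43 of 860 windows (5.0%), against 4.66% of all promoters, and the longer form TCAAGGTCA, which contains the shorter one, in 4 (0.465%), against 0.407%. The NRF-1 letters GCGCATGC were in 21 (2.44%), against 2.80%. Of the windows of genes met by the looser rule, 8 were matched in each direction. None of the 8 for the higher genes held any of these letters, while AAGGTCA was in 2 for the lower genes, Scpep1os and Alkbh3os1. Both of these had passed the detection filter through the controls alone, so nothing is read from that number. That of Alkbh3os1 at chr2:93979784-93980083 (plus strand) held the longer form, in capitals here.
Alkbh3os1: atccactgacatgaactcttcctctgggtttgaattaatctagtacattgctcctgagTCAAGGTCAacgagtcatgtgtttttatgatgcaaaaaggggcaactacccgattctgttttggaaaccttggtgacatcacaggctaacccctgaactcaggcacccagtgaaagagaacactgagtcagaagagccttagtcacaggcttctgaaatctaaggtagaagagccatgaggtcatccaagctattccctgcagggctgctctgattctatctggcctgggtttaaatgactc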

How the data were processed

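Total RNA of the 6 samples was hybridised to 1-colour Agilent mouse arrays. The deposited scanner files hold linear intensity values made with Feature Extraction 11.5.1.1, background-subtracted and detrended within an array but not normalized between arrays. The deposited series matrix gives log2 values that the authors normalized in GeneSpring, for 46731 probes, and its rule for leaving out probes is not given in the sources used here. The files hold no probe sequences, and their grid refers to build mm9 while the gene table is of GRCm38.p6, so probe positions are left out.

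In R 4.3.3, spots marked as outliers were dropped, spots of a probe averaged as log2 of the processed signal, and the 75th percentile of each array over probes that are not controls subtracted. The 40745 tested probes had the flag for well above background on every unmarked array (2 or more) of a group, and 2 or more values in both groups. Groups were compared in limma 3.58.1 (lmFit, eBayes with trend, two-sided) and p-values were adjusted by Benjamini-Hochberg over the whole table, with 0.05 as the threshold. Single genes were also compared by an exact permutation test over 20 assignments. For genes with several probes the brightest stands in lists, pairs and fixed names, while the named higher and lower genes go by the probe that met their rule. The procedure was tested on simulated data. Precision is limited by the number of arrays, 3 a group.

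The members, lists and rules were chosen with earlier results of these data known. Named genes were the 15 brightest, up to 8 higher and 8 lower genes of at least 2-fold without overlap in order of p, the 4 brightest of each noncoding list, and 10 fixed names. Others, such as Lhx1os, Luc7l, Snora23 and the genes low on a single array, were named after their values were seen. A neighbour is the nearest protein-coding gene of the RefSeq table that had a tested probe.

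Replicate numbers were checked for pairing. Deviations from the group means correlated across probes at 0.247, 0.224 and 0.171 for arrays of the same number, and between -0.337 and 0.035 otherwise. As all 3 exceeded 0.1 the numbers were taken as pairs, though no label says what they stand for. This check used the tested values themselves, and the arrays numbered 3 were also those of the second slide, so it cannot establish a pairing. Alternatives were other normalizations and filters, slide and replicate blocks and leaving out each array.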

Additional observations from a re-analysis of the deposited data

How the results depend on the processing

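The median difference over noncoding probes stayed positive under every alternative run and moved from 0.16 by less than the SD between arrays, 0.172, and without single arrays it ran from 0.02 (without control 1) to 0.31 (without control 2). The number of noncoding probes with an adjusted p below 0.05 was 0 except with the replicate block (31) and without control 2 (17) or mPGC-1α 1 (9), a range of 0 to 17 over the arrays left out. Higher probes by the looser rule numbered 14, and 4 with normexp, 9 with the authors' matrix or with outlier-marked spots kept, 23 with no detection filter and 9 to 24 without single arrays. Lower ones numbered 15, and 6 with normexp, 8 when all 6 arrays had to be above background, 25 with the replicate block and 12 to 34 without single arrays. Taking the 75th percentile over all spots, an alternative chosen after seeing the data, gave 8 higher probes, and with the replicate block also 25 lower ones but 0 calls. It moved the median of all probes from 0.15 to 0.06. Noncoding probes detected numbered 1401, or 1861 by the flag for a positive and significant signal. For the brighter Neat1 probe the difference ran from -0.43 without control 3 to 0.0033 without control 1, where it changed sign. With the brightest probe of each gene Ttc39aos1 turned from -1.05 to 0.31, and no other difference of the named higher, lower and fixed genes changed sign in the alternatives that gave a value for it. Why these values moved was not tested. The 6 arrays limit precision, and dim probes carry the widest spread.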
